A study of Mus musculus with 14 samples.

Results

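The comparison described here set the 5 mouse thymic lymphomas with the highest output of Notch target genes against the 5 with the lowest, out of 14 tumours in the series. Each tumour was scored by the mean log2 level of 5 genes, Dtx1, Hes1, Nrarp, Ptcra and Notch3, each taken from its brightest probe set. The 10249 measured genes outside the score were then compared between the high and the low tumours. The tumours were thus chosen by measured levels of the 5 score genes, which are described without a test.

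Total RNA of each lymphoma was hybridised to 1 Affymetrix array, in a study of how the Hif1a genotype affects these tumours. Every mouse, in every group, was homozygous for the p53 mutation R270H on a mixed C57BL/6-129/SvEvTac background and was killed on showing respiratory distress. The high group held 3 Hif1a+/+ tumours, 1 Hif1a+/- tumour and 1 Hif1aKI/+ tumour. The low group held 1 Hif1a+/+, 3 Hif1a+/- and 1 Hif1aKI/+ tumour, and the 4 tumours in between were 1 Hif1a+/+, 1 Hif1a+/- and 2 Hif1aKI/+. The labels do not say what the KI (knock-in) allele carries, and they give no age or array date. Levels are log2 probe set values, so a difference of 1 is a doubling. Values under 4.41 belong to the low mode of the distribution, where probe sets gave no signal above background. The tissue was bulk tumour, in which fewer cells of a type and less RNA per cell cannot be told apart.

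Notch receptors are cell surface proteins that are cut when a ligand on a neighbouring cell binds them. The released intracellular part enters the nucleus, joins the DNA-binding protein Rbpj and the coactivator Mastermind, and switches on target genes. In the thymus Notch1 directs progenitors to the T cell lineage and drives the early CD4-negative, CD8-negative stages, and activating Notch1 mutations are frequent in T cell leukaemias and lymphomas of mice and humans.

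The T cell markers Cd3e, Thy1, Cd3g and Cd3d were at a high level in every high and low tumour. The pan-T cell gene Cd3e, part of the T cell receptor complex, ranged over 12.85 to 13.05 in the high tumours and 12.05 to 13.34 in the low tumours. Thy1, a surface protein of thymocytes, ranged over 14.12 to 14.30 in the high and 14.08 to 14.23 in the low tumours. Other T cell genes varied more. Cd5 ranged over 4.37 to 9.90 in the high and 9.38 to 9.86 in the low tumours, its lowest value being below the background boundary. The Cd5 difference was -1.60, with an adjusted p of 0.738 (limma). Cd2 ranged over 9.335 to 11.78 in the high and 7.92 to 12.02 in the low tumours. The B cell markers Cd79a and Ms4a1 reached at most 3.43 and 4.89 in a high tumour, against 5.87 and 6.63 in a low tumour. Of the other chains of the T cell receptor complex, Cd3g ranged over 12.04 to 13.09 in the high and 12.77 to 13.28 in the low tumours, a difference of -0.44. Cd3d ranged over 13.34 to 14.13 in the high and 13.93 to 14.33 in the low tumours, a difference of -0.27, and neither passed, with adjusted p-values of 0.679 and 0.715 (limma).

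Among the score genes, Dtx1 and Nrarp set the groups furthest apart. Dtx1, an E3 ubiquitin ligase induced by Notch, was 12.76, 12.37, 12.39, 11.13 and 11.36 in the high tumours, in descending order of score as throughout, against 10.12, 8.37, 9.0, 2.62 and 1.90 in the low tumours. The last 2 low tumours, Hif1a+/- tumours 2 and 5, were at background. Nrarp, a feedback inhibitor of the Notch nuclear complex, was 11.86, 11.61, 8.83, 9.18 and 8.93 in the high tumours and 6.09, 4.63, 8.65, 7.08 and 6.21 in the low tumours. For both genes every high tumour lay above every low tumour.

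Hes1, a repressor and a direct Notch target in many tissues, was 6.42, 9.02, 7.10, 7.21 and 6.20 in the high tumours and 7.02, 5.31, 3.87, 2.56 and 2.02 in the low tumours. Ptcra, the invariant chain of the pre-T cell receptor, was 13.19, 12.32, 11.64, 12.74 and 12.72 in the high tumours and 12.34, 12.37, 9.78, 9.52 and 8.61 in the low tumours. Notch3, a receptor that is itself a Notch target in thymocytes, was 12.24, 10.66, 11.74, 11.20 and 11.39 in the high tumours and 11.48, 11.52, 8.93, 6.78 and 9.74 in the low tumours. For these 3 genes the groups overlapped. The low tumours Hif1a+/+ 2 and Hif1aKI/+ 4 had Ptcra and Notch3 levels inside the range of the high tumours, so their low scores came from Dtx1 and Nrarp and, in Hif1aKI/+ 4, Hes1.

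**Figure D1:**
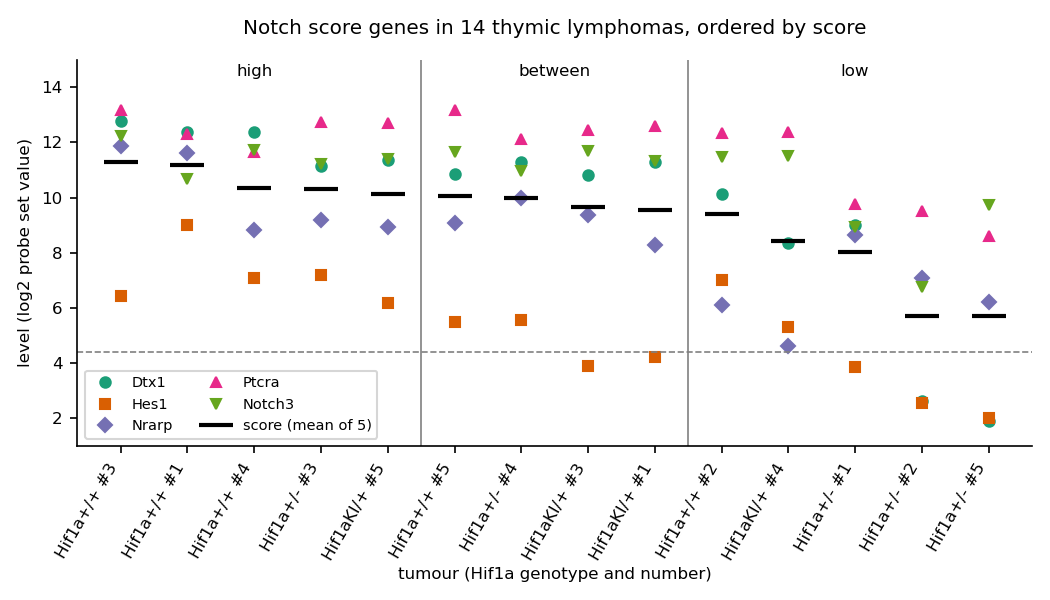
Level (log2 probe set value, vertical axis) of the 5 score genes in each of the 14 tumours, ordered from the highest score on the left to the lowest on the right; black bars are the score, vertical lines separate the high, in-between and low tumours, and the dashed line is the background boundary of 4.41. Dtx1 and Nrarp do not overlap between high and low tumours, and Hif1a+/- tumours 2 and 5 have Dtx1 and Hes1 at background.

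The score was 10.65 ± 0.55 (SD, n = 5) in the high tumours and 7.46 ± 1.68 (SD, n = 5) in the low tumours. Tumours just inside and just outside the high group differed little, with 10.12 in Hif1aKI/+ tumour 5 and 10.05 in Hif1a+/+ tumour 5. The low group began at 9.41 in Hif1a+/+ tumour 2, next to 9.54 in Hif1aKI/+ tumour 1 above it. The widest step lay inside the low group, between 8.05 in Hif1a+/- tumour 1 and 5.71 in Hif1a+/- tumour 2, followed by 5.70 in Hif1a+/- tumour 5. The scores of Hif1a+/- tumours ran from 5.70 to 10.29, those of Hif1aKI/+ tumours from 8.44 to 10.12 and those of Hif1a+/+ tumours from 9.41 to 11.29.

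Of the 10249 genes tested, 1 rose in the high tumours and none fell at an adjusted p of 0.05, which is 0.00976% of genes (limma, Benjamini-Hochberg over all genes). The gene was Tars2, which encodes the mitochondrial threonyl-tRNA synthetase that charges the tRNA for threonine in mitochondrial translation. At an unadjusted p of 0.05, 447 genes (4.36%) were on the higher side and 289 (2.82%) on the lower side, 7.18% in all. After centring the arrays on their medians this split was 369 higher and 373 lower. High and low tumours did not overlap for 106 genes (1.03%) on the higher side and 39 (0.381%) on the lower side, 1.41% in all. The median difference over all genes was 0.00, and 53.5% of genes lay above 0.

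Tars2 was 9.16, 9.04, 9.13, 8.93 and 9.22 in the high tumours and 8.36, 8.38, 8.45, 8.41 and 8.35 in the low tumours. The 2 ranges were separate, and the tumours in between spanned both, with 8.57, 8.77, 9.02 and 8.32. The difference was 0.71 ± 0.056 on the log2 scale (SE, n = 5 in each group), a 1.63-fold higher level, with an adjusted p of 0.00687 (limma). The difference was 0.75 within Hif1a+/+, 0.53 within Hif1a+/- and 0.83 within Hif1aKI/+ tumours, each resting on 1 tumour in at least 1 of the groups. A second Tars2 probe set differed by 0.55 with an unadjusted p of 0.043 in limma, which did not pass adjustment.

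The size of the Tars2 difference was modest beside that of many genes that missed the threshold, and the spread within groups was small, with an SD of 0.11 in the high and 0.038 in the low tumours. The call was lost in 16 of 32 alternative fits. Those that kept it were mostly close to the main fit. They included all 10 fits that left out 1 tumour, with adjusted p up to 0.0484 (limma). The score without Ptcra or without Notch3, which repeated the main fit, also kept it. The rest were quantile normalization, array weights, a Y-linked covariate and probe sets tested singly. With genes of low mean level left out the adjusted p was 0.434, and with the Hif1a genotype as a covariate it was 0.200 (limma).

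Sequence before the listed Tars2 start is shown because it is the called gene. That of the score gene Ptcra and of Lfng, a Notch-modifying enzyme, is shown because their windows also hold the motif. Lfng was neither a score gene nor called. Its means of 2.71 in the high and 3.75 in the low tumours lay below the background boundary. Capitals mark TGGGAA, the core of the Rbpj site, or its reverse complement TTCCCA, searched on both strands in the 250 bases before the start that the RefSeq promoter table gives for each gene. Sequences are from RefSeq on GRCm38.p6 and are written 5′ to 3′ on the strand of the gene. Tars2 lies at chr3:95754978-95755227 (minus strand), Ptcra at chr17:46763713-46763962 (minus strand) and Lfng at chr5:140607091-140607340 (plus strand).
Tars2: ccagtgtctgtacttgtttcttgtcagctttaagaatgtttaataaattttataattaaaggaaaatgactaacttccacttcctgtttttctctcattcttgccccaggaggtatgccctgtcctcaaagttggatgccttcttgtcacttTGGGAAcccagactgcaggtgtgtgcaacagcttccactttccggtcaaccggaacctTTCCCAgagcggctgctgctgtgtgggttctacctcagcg
Ptcra: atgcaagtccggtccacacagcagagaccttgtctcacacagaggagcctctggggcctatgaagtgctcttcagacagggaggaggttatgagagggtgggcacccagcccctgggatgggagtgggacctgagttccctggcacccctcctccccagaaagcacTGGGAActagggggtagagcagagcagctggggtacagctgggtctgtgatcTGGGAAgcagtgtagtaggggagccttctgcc
Lfng: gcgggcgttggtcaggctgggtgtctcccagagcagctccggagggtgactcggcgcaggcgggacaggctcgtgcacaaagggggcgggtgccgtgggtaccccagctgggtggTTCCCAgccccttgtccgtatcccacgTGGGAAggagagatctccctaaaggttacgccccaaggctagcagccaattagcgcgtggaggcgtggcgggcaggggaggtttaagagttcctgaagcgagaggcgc
The Tars2 span in the RefSeq gene table reaches 1388 bases beyond that start, so its window lies inside the gene, whereas the windows of Ptcra and Lfng end where their genes begin. The motif started 98 and 40 bases before the start in Tars2, 84 and 32 bases before it in Ptcra, and 135 and 108 bases before it in Lfng. It was not found in the windows of Dtx1, Notch3 and Nrarp, so 1 of the 4 score genes in the promoter table held it. The Dtx1 span reaches 198 bases beyond its listed start and that of Notch3 6 bases. Their windows thus lie partly inside the genes, that of Dtx1 for the most part. Over all 32851 promoters in that table, 21.6% held the motif at least once and 2.77% held it 2 or more times. A match describes the letters in this window and was not tested as a site.

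Other Notch targets differed unevenly between the groups, and none passed the threshold. Lef1, a transcription factor of the Wnt pathway and a Notch target in thymocytes, was 9.43, 9.39, 8.90, 9.68 and 8.60 in the high tumours and 7.71, 9.17, 7.44, 5.77 and 6.10 in the low tumours. The groups overlapped only through Hif1aKI/+ tumour 4, and the difference was 1.96 with an unadjusted p of 0.0115 and an adjusted p of 0.569 (limma). Within genotypes the Lef1 difference was 1.53 in Hif1a+/+, 3.24 in Hif1a+/- and -0.57 in Hif1aKI/+ tumours. Heyl, a repressor of the Hes and Hey family, was 9.98, 8.02, 8.93, 4.91 and 4.66 in the high tumours and 2.60, 2.01, 6.08, 1.99 and 5.51 in the low tumours. Its 3 highest values were those of the 3 high Hif1a+/+ tumours, and the other high tumours lay inside the range of the low tumours. The Heyl difference was 3.66 with an adjusted p of 0.628 (limma), and a second Heyl probe set differed by 0.24.

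Il2ra, the alpha chain of the IL-2 receptor and a marker of early thymocytes, was present in some tumours of each group. It was 11.42, 6.90, 9.93, 3.00 and 3.22 in the high tumours and 8.26, 2.13, 6.29, 2.12 and 2.13 in the low tumours, with an adjusted p of 0.790 (limma). All 3 high tumours with a signal were Hif1a+/+, and in the low group Hif1a+/+ tumour 2 and Hif1a+/- tumour 1 had one. Myc, a growth-promoting transcription factor and Notch target, was 11.09, 12.33, 10.69, 12.64 and 12.26 in the high tumours and 12.39, 12.72, 11.35, 11.30 and 9.45 in the low tumours. Only Hif1a+/- tumour 5 lay below the high range of Myc, and the difference was 0.36. Hes5 was at background in all 10 tumours, and Hey1 differed by 0.03.

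Of 18 measured targets outside the score, 11 lay higher and 7 lower in the high tumours, with a median difference of 0.07. None was called, and 2 had an unadjusted p under 0.05 (limma), Lef1 and Heyl, against 4.36% of all genes on the higher side. The median ranged over 0.03 without Hif1a+/+ tumour 1 to 0.20 without Hif1a+/+ tumour 4. It was 0.04 without Hif1a+/- tumour 5, 0.11 without Hif1a+/+ tumour 3 and 0.15 without Hif1aKI/+ tumour 4. Without Hif1a+/- tumours 2 and 5, which had Dtx1 at background, it was -0.06, with 9 genes higher.

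Notch1, the main receptor of early thymocytes, was 14.54, 13.77, 13.85, 14.39 and 13.40 in the high tumours and 13.63, 14.15, 12.98, 11.40 and 12.59 in the low tumours. The 2 lowest values were those of Hif1a+/- tumours 2 and 5, the tumours with Dtx1 at background, and the other 3 low tumours ran from 12.98 to 14.15. The Notch1 difference was 1.04 ± 0.49 (SE) with an adjusted p of 0.684 (limma), and a second probe set differed by 1.93. Within genotypes it was 0.42 in Hif1a+/+, 2.06 in Hif1a+/- and -0.75 in Hif1aKI/+ tumours. Notch2 differed by 0.21. Of 8 receptor and ligand genes outside the score, 6 had a mean below the background boundary, and the median difference was 0.00.

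None of the genes between receptor and target passed. Of 22 genes of Notch processing and the nuclear complex, 9 lay higher and 13 lower, with a median of -0.03 and none called. That median lay between -0.10 and 0.02 when 1 tumour at a time was left out, the ends being without Hif1a+/- tumour 2 and Hif1a+/+ tumour 1. Rbpj, the DNA-binding partner of Notch, was 10.59, 10.57, 10.50, 10.74 and 10.26 in the high tumours and 11.03, 10.27, 10.56, 9.95 and 9.94 in the low tumours. Fbxw7, the ubiquitin ligase subunit that marks active Notch and Myc for degradation, differed by 0.13, and by 0.55 at a second probe set. Mfng, a glycosyltransferase that modifies Notch receptors, differed by 0.39 and its relative Lfng by -1.04. Both group means of Lfng lay below the background boundary.

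**Figure D2:**
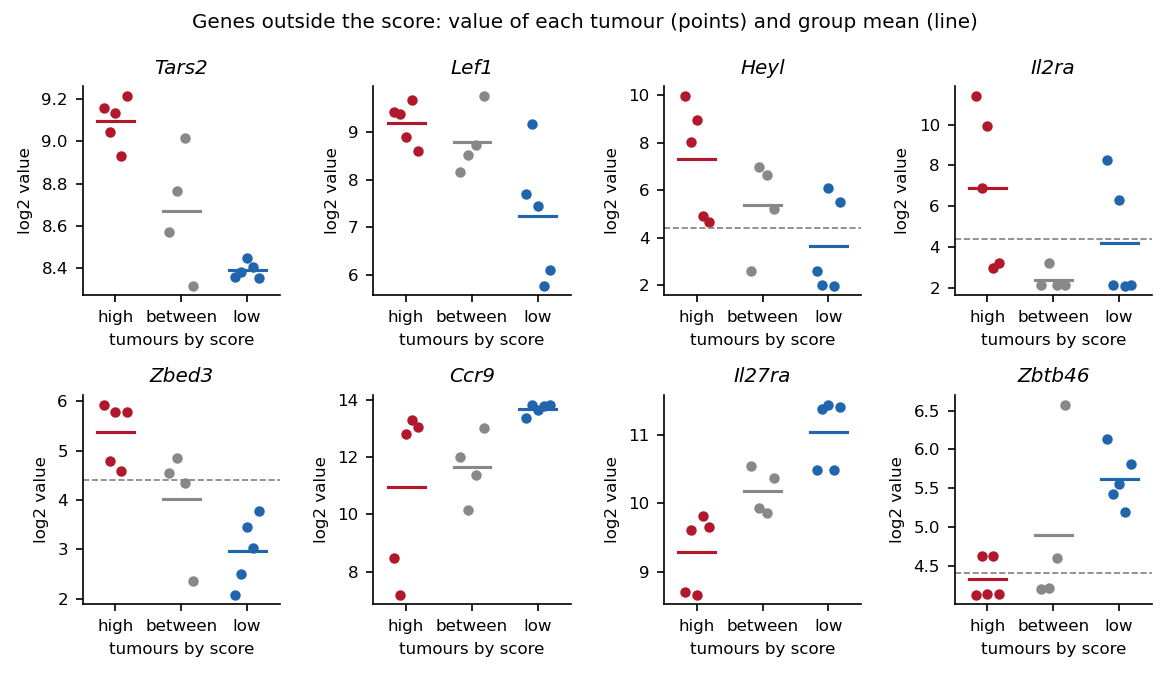
Log2 value of 8 genes outside the score in each tumour (points) with the group mean (line), for high, in-between and low tumours; the dashed line, where shown, is the background boundary of 4.41. Tars2 is the called gene, with 8.93 to 9.22 in high and 8.35 to 8.45 in low tumours; Lef1, Heyl and Il2ra overlap between the groups, and Zbed3, Ccr9, Il27ra and Zbtb46 do not overlap but missed the threshold.

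The gene of next smallest p was Ddx20, a DEAD-box helicase of the SMN complex, with a difference of 0.58 and an adjusted p of 0.139 (limma), named here after its value was seen. The genes that follow were restricted to differences of at least 1, so their size was set by that choice. The 9 such genes of smallest p on the higher side had adjusted p-values between 0.298 and 0.402 (limma). Zbed3, which encodes an Axin-binding protein of the Wnt pathway, was 5.94, 4.79, 5.80, 4.60 and 5.78 in the high tumours and 2.08, 2.49, 3.45, 3.02 and 3.78 in the low tumours. All low tumours were at background and all high tumours above it, and the other Zbed3 probe sets differed by 1.73 and 0.16. Itga9, an integrin alpha chain, was 11.66, 10.04, 10.49, 9.14 and 10.18 in the high and 9.04, 7.59, 6.97, 6.50 and 8.30 in the low tumours, a difference of 2.62, with 1.31 and 2.26 at its other probe sets. Rasal1, a GTPase-activating protein for Ras, was 9.52, 8.44, 9.45, 8.09 and 9.07 in the high and 7.75, 7.25, 6.47, 6.33 and 6.07 in the low tumours. On chromosome 5 the Rasal1 span, 120648040-120679597, lies beside that of the score gene Dtx1, 120680203-120711867. Whether Rasal1 varies apart from Dtx1 was not tested. Neither Itga9 nor Rasal1 overlapped between the groups.

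The other genes of that kind were Bag2, a co-chaperone of Hsp70, with a difference of 1.86, and Me1, the cytosolic malic enzyme, with 2.47. Of the low tumours, all but Hif1a+/+ tumour 2 had Me1 at background, so the size of its difference is uncertain, and a second Me1 probe set differed by 0.03. Ubald1 differed by 1.39, Rab3ip, an activator of Rab8, by 1.21, and Mmab, an enzyme of vitamin B12 metabolism, by 1.06, with 0.05 at its second probe set. Ace, angiotensin-converting enzyme, differed by 3.16, and all 5 low tumours were at background, as was the high Hif1aKI/+ tumour 5 with 2.93. Of these 9 genes Mmab overlapped between the groups, and the order of Ace in its lowest high tumour and the low tumours lies within background.

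On the lower side no gene passed. Il27ra, the receptor chain for interleukin 27, was 8.70, 9.60, 8.66, 9.81 and 9.65 in the high tumours and 10.48, 11.37, 11.44, 10.48 and 11.41 in the low tumours. The ranges were separate, the difference was -1.75 ± 0.32 (SE), and the adjusted p was 0.402 (limma). Within genotypes the Il27ra difference was -1.49 in Hif1a+/+, -1.30 in Hif1a+/- and -1.71 in Hif1aKI/+ tumours. Zbtb46, a transcription factor of conventional dendritic cells, was 4.13, 4.62, 4.13, 4.62 and 4.13 in the high tumours and 6.14, 5.42, 5.55, 5.19 and 5.81 in the low tumours. Hif1a+/+ tumours 3 and 4 and Hif1aKI/+ tumour 5, at 4.13, were at background, and the other high tumours lay just above it. The size of the Zbtb46 difference is thus uncertain, and a second probe set differed by 0.00.

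Egr1, an immediate early transcription factor induced by T cell receptor signals, was 10.16, 10.32, 10.74, 9.33 and 10.04 in the high tumours and 11.22, 11.79, 12.08, 10.80 and 11.63 in the low tumours. The groups did not overlap, and the difference was -1.39 with an adjusted p of 0.402 (limma). Trim30a differed by -1.76 and Irgm2, an interferon-inducible GTPase, by -1.91. Rhbdl3, a rhomboid-like protein, differed by -3.72 and Pink1, a mitochondrial quality-control kinase, by -1.03. Fbxo25 differed by -1.19, Retreg3 by -1.01 and Ctdsp2 by -1.04, and these 3 overlapped between the groups. At other probe sets Retreg3 differed by 0.00 and Ctdsp2 by -0.84 and -0.16.

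Genes of thymocyte stages gave the following counts, with none called in any list. All 13 measured double-positive thymocyte genes, which mark cells with both CD4 and CD8, lay lower in the high tumours, with a median of -0.49, against 46.5% of all genes below 0. Ccr9, a chemokine receptor of double-positive thymocytes, was 8.47, 7.20, 12.81, 13.29 and 13.04 in the high tumours and 13.36, 13.84, 13.64, 13.80 and 13.81 in the low tumours. The groups were separate, but only Hif1a+/+ tumours 3 and 1 lay far below the rest, and the adjusted p was 0.679 (limma). Tox, a nuclear factor of T cell selection, differed by -1.56, Cd8b1, a chain of CD8, by -0.72, Cd8a by -0.24 and Rag1, a recombinase subunit, by -0.51. The list median was -0.19 without Hif1a+/+ tumour 1, -0.19 without Hif1a+/- tumour 5, -0.20 without Hif1aKI/+ tumour 4 and -0.30 without Hif1a+/+ tumour 4.

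Of 13 early thymocyte genes, 3 lay higher and 10 lower with a median of -0.05, and 9 had a mean below the background boundary, among them Kit and Bcl11a. The median was -0.29 without Hif1a+/+ tumour 1, -0.02 without Hif1a+/- tumour 2 and -0.01 without Hif1a+/+ tumour 2. Of 19 genes of pre-T cell receptor and T cell receptor signalling, 6 lay higher and 13 lower, with a median of -0.34. The adaptor Lcp2 was 11.42, 10.85, 11.06, 11.75 and 11.23 in the high tumours and 11.66, 12.19, 11.83, 12.07 and 11.80 in the low tumours, a difference of -0.65 with an adjusted p of 0.520 (limma). The groups overlapped at 1 low tumour, Hif1a+/+ tumour 2, and a second Lcp2 probe set differed by -1.71. Of 16 T lineage factors, 4 lay higher and 12 lower, with a median of -0.16, which was -0.28 without Hif1a+/- tumour 2 and -0.08 without Hif1aKI/+ tumour 4. Ets1, a transcription factor of lymphocytes, was 12.97, 12.79, 12.95, 13.03 and 12.97 in the high and 13.19, 13.63, 13.39, 13.05 and 13.32 in the low tumours. Gata3, a factor of T cell commitment, differed by -0.46.

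Genes of ribosome biogenesis and of division lay mostly higher in the high tumours, without any call. Of 28 genes of the Myc and ribosome biogenesis list, 27 lay higher, with a median of 0.35, against 53.5% of all genes above 0. Of these, 7 had an unadjusted p under 0.05 (limma), against 4.36% of all genes on the higher side. Cad, the enzyme that starts pyrimidine synthesis and a Myc target, was 12.67, 12.78, 13.23, 12.75 and 12.43 in the high tumours and 12.13, 11.43, 12.39, 11.68 and 11.92 in the low tumours. The groups were separate by a narrow margin, and the difference was 0.86 with an adjusted p of 0.473 (limma). Nop16, a nucleolar protein, differed by 0.97 and also did not overlap, while Polr1a, the largest subunit of RNA polymerase I, differed by 1.06 and the translation factor Eif4e by 0.42. Of the 16 measured ribosomal protein genes, 2 lay higher and 14 lower, with a median of -0.05, which was -0.02 without Hif1a+/+ tumour 3 and -0.03 without Hif1a+/- tumour 2.

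Of 36 cell cycle genes, 34 lay higher, with a median of 0.33, against 53.5% of all genes above 0. The replication helicase subunits Mcm7 and Mcm2 differed by 0.39 and 0.51, the cyclins Ccna2 and Ccnb2 by 0.35 and 0.28, and the transcription factor E2f1, which was chosen after its value was seen, by 1.32. One low tumour, Hif1a+/- tumour 5, had the lowest list mean of all 14 tumours in both lists, 10.66 for Myc and ribosome biogenesis and 10.38 for the cell cycle. Without it the medians were 0.16 and 0.17, with 21 of 28 and 29 of 36 genes on the higher side. Of the D cyclins and their partners, Ccnd2 differed by -2.13 at its brightest probe set and by -0.15 to -0.95 at 5 others, and Cdk4 by 0.39. The list of 13 had a median of -0.18, which was -0.29 without Hif1a+/+ tumour 2. Of 18 glycolysis genes, 14 lay higher with a median of 0.24, which was 0.09 without Hif1a+/- tumour 5. Pkm, pyruvate kinase, was 13.47, 13.53, 13.33, 13.46 and 13.26 in the high tumours and 13.29, 13.21, 12.83, 13.05 and 12.76 in the low tumours, and overlapped at Hif1a+/+ tumour 2.

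The groups differ in their make-up by Hif1a genotype, and some list medians were smaller with the genotype as a covariate. The double-positive median was then -0.19, that of T cell receptor signalling -0.17, that of glycolysis 0.06 and that of the D cyclin list -0.02. The Myc and cell cycle medians were 0.25 and 0.29, with 24 of 28 and 34 of 36 genes on the higher side. Without Hif1a+/- tumours 2 and 5 the Myc, cell cycle and glycolysis medians were 0.18, 0.20 and 0.07, with 19 of 28, 28 of 36 and 10 of 18 genes on the higher side. The double-positive median was then -0.25 and that of T lineage factors -0.34.

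**Figure D3:**
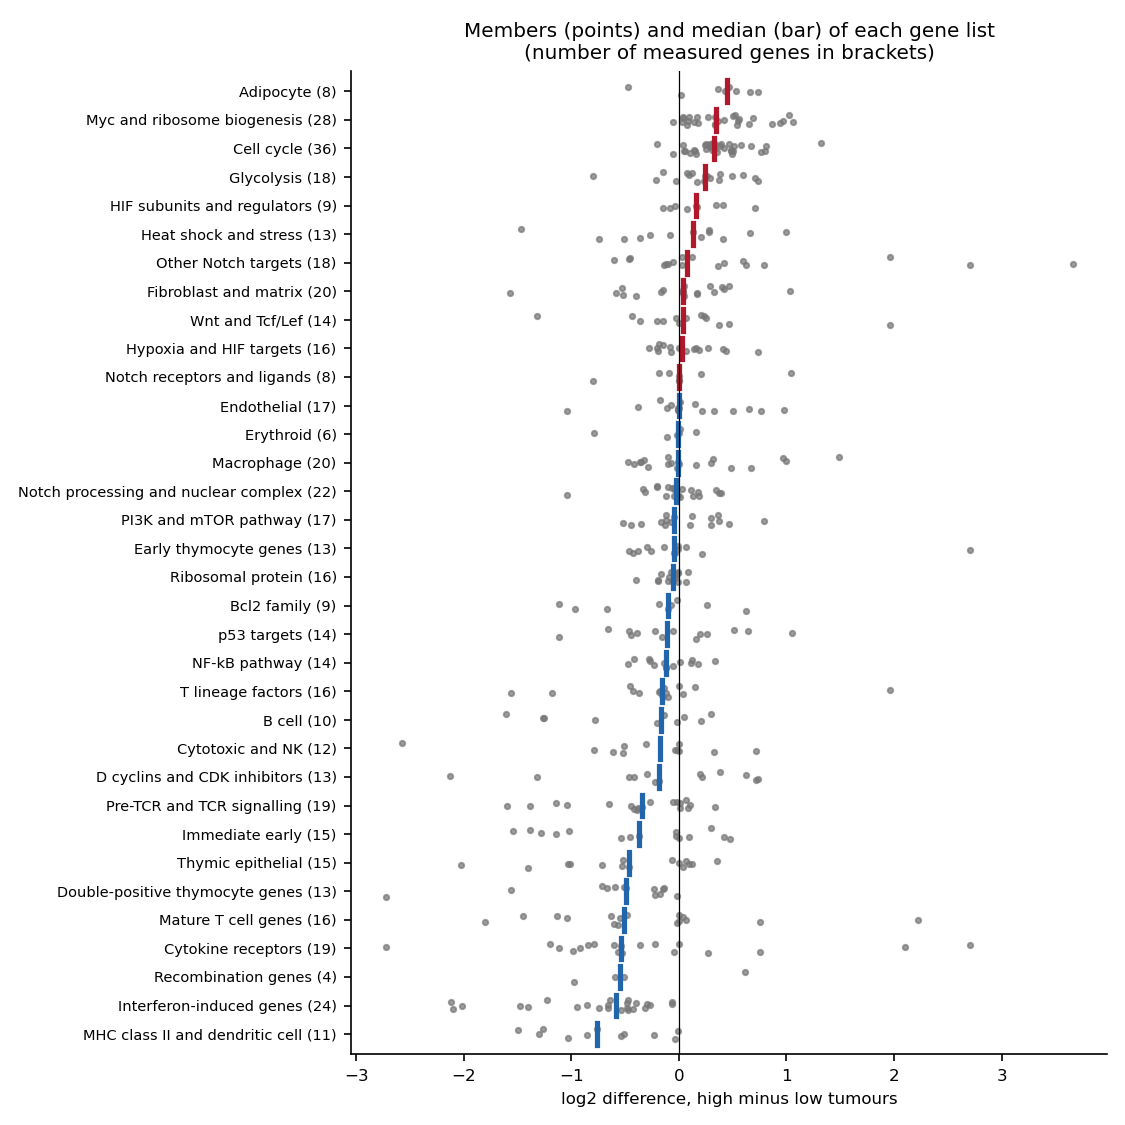
Log2 difference, high minus low tumours (horizontal axis), of every measured member (points) of 34 gene lists (all but the sex-linked genes), with the list median as a bar, red above 0 and blue below; the number of measured genes is in brackets. Medians run from 0.45 for the 8 adipocyte genes to -0.76 for the 11 genes of the class II and dendritic cell list, and no member of any list was called.

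All 24 measured interferon-induced genes lay lower in the high tumours, with a median of -0.59, against 46.5% of all genes below 0. Of the 24, 5 had a mean below the background boundary. Without Hif1a+/- tumours 2 and 5 the median was -0.77, with 2 genes higher. With the genotype as a covariate it was -0.50, with 4 higher. Irf7, a transcription factor that amplifies the interferon response, was 1.89, 3.07, 2.02, 5.25 and 2.48 in the high tumours and 4.97, 6.03, 5.53, 6.44 and 2.34 in the low tumours. All high tumours but Hif1a+/- tumour 3 were at background, and so was the low Hif1a+/- tumour 5. Within genotypes the Irf7 difference was -2.64 in Hif1a+/+, 0.49 in Hif1a+/- and -3.55 in Hif1aKI/+ tumours. Irf9, a subunit of the interferon-activated complex ISGF3, was 6.82, 6.88, 7.37, 8.76 and 7.39 in the high tumours and 8.38, 9.33, 9.74, 9.01 and 7.76 in the low tumours, a difference of -1.40 with an adjusted p of 0.600 (limma). The mean of the list was 5.84, 7.06, 5.76, 7.22 and 6.54 in the high tumours and 6.98, 7.85, 7.52, 7.82 and 6.23 in the low tumours. Hif1a+/+ tumours 3 and 4 were the lowest and the groups overlapped.

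All 11 measured genes of MHC class II and of dendritic cells lay lower in the high tumours, against 46.5% of all genes below 0. The median was -0.76, which was -0.45 without Hif1a+/+ tumour 3. With the genotype as a covariate the median was -0.51, with 1 gene higher. Cd74, the invariant chain that escorts MHC class II, was 10.69, 12.83, 12.34, 13.95 and 13.16 in the high tumours and 13.94, 13.61, 13.33, 13.57 and 13.69 in the low tumours. H2-Eb1, a class II beta chain, differed by -1.26 and Cst3, a protease inhibitor abundant in dendritic cells, by -0.76. Within Hif1a+/- tumours Cd74 and H2-Eb1 instead lay higher on the high side, by 0.41 and 0.68. Their differences were -1.98 and -2.53 within Hif1a+/+ and -0.44 and -0.76 within Hif1aKI/+ tumours. Hif1a+/+ tumour 3 had the lowest Cd74 and H2-Eb1, and neither gene passed, with adjusted p-values of 0.715 and 0.715 (limma).

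Markers of other cells are given beside these lists. The mean of 20 macrophage genes ranged over 8.20 to 8.49 in the high tumours and 7.47 to 9.96 in the low tumours, the highest being Hif1a+/+ tumour 2. The mean of 20 fibroblast and matrix genes ranged over 9.05 to 10.64 in the high and 9.06 to 10.87 in the low tumours. The mean of 15 thymic epithelial genes ranged over 3.79 to 7.12 in the high and 5.28 to 6.55 in the low tumours, and the high tumours Hif1a+/+ 3 and 4, which had the lowest interferon and class II means, also had the lowest thymic epithelial means, 3.79 and 4.05. Krt8, a keratin of epithelial cells, ranged over 2.04 to 11.53 in the high and 8.0 to 10.56 in the low tumours. The 8 adipocyte genes averaged 10.11 in Hif1a+/+ tumour 3, and their median difference of 0.45 was -0.31 without that tumour, 0.17 without Hif1a+/- tumour 2, 0.79 without Hif1a+/+ tumour 2 and -0.09 with the genotype as a covariate. The share of these cells in the differences was not tested.

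**Figure D4:**
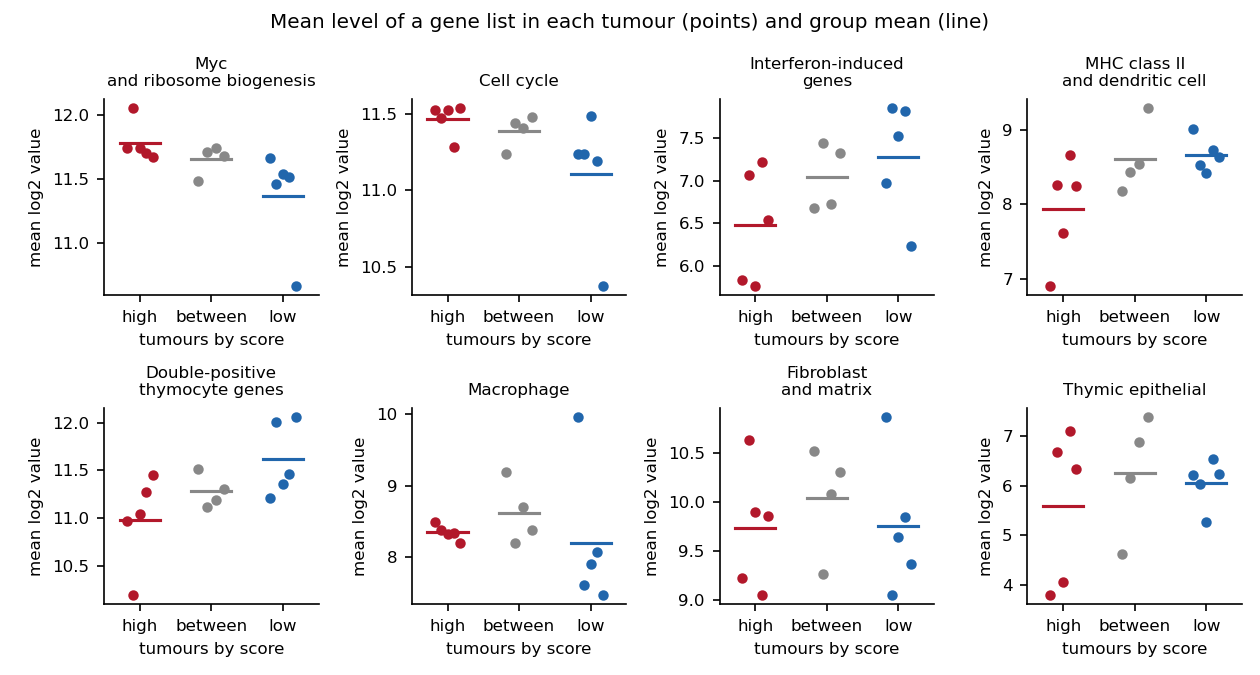
Mean log2 level of 8 gene lists in each tumour (points) with the group mean (line), for high, in-between and low tumours. The Myc and cell cycle means of the low group include 1 tumour far below the rest, at 10.66 and 10.38; the interferon, class II and double-positive lists are lower on average in the high tumours; macrophage and fibroblast means overlap.

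The immediate early genes gave a median of -0.37 over 15 genes, 5 higher and 10 lower. Besides Egr1, Jun differed by -1.54, Btg2, an antiproliferative gene, by -1.28 and Jund by -0.37. At second probe sets Jun differed by -0.29 and Btg2 by -1.24. Without Hif1a+/+ tumour 2, whose list mean of 7.96 was the highest, the median was -0.09, and without Hif1a+/+ tumour 1 it was -0.21.

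Hif1a, the oxygen-regulated subunit of HIF-1 and the gene whose alleles differ in the series, was 12.45, 12.60, 12.44, 12.47 and 11.75 in the high tumours and 13.04, 11.94, 12.54, 12.24 and 12.68 in the low tumours, a difference of -0.14. The lowest value was that of the high Hif1aKI/+ tumour. Of 9 HIF subunits and regulators, 6 lay higher and 3 lower with a median of 0.15, led by the coactivator Crebbp with 0.70. The median was 0.07 without Hif1a+/- tumour 2 and 0.10 without Hif1aKI/+ tumour 5 or without Hif1a+/+ tumour 3. The X-inactivation transcript Xist had a signal well above background in 1 high and 1 low tumour, Hif1a+/+ tumour 3 with 12.57 and Hif1a+/- tumour 1 with 12.68.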

How the data were processed

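The authors deposited log2 values per probe set, 1 array per tumour, made with GCRMA and Partek, per the submitters' processing notes, without versions. GCRMA corrects probes for background by their sequence, normalizes the arrays and summarises each probe set, so levels near background are compressed. No genome build is named, and scanner intensities were not used here. Of 18264 probe sets, 16602 name 1 gene, 603 several and 1059 none. Each gene was read from its brightest probe set over all arrays. This gave 10254 genes, 5 of them in the score, and 3999 had more than 1 probe set. Array medians lay between 7.91 and 8.03 and correlations between arrays between 0.942 and 0.976. The low-mode boundary was 4.41, and 28.5% of genes had a mean below it, where a difference is measured against background.

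The 10 tumours were fitted with limma 3.58.1 in R 4.3.3 (lmFit, eBayes, a mean per group), two-sided, with Benjamini-Hochberg adjustment over 10249 genes and a threshold of 0.05. The groups were chosen by measured values, and a gene that varies with the score genes can differ between them for any reason. The 35 gene lists are described by counts and medians only. The members and lists were chosen with earlier results of these data known. Named genes were the score genes, called genes, up to 10 next-ranked genes per direction with a difference of at least 1, the 4 members of smallest p in 16 lists and a fixed set of Notch genes. Others named are list or cell type markers. Nothing says how tumours share litters or batches. Precision is limited by the number of arrays. The replicate numbers of the labels did not pair tumours: residuals of same-numbered tumours had a mean correlation of -0.006 over 13 pairs.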

Additional observations from a re-analysis of the deposited data

Results flagged for a closer look

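In groups of 5 tumours, 18 of 185 groups of values examined had a tumour that stood apart from the others by more than Dixon's critical ratio, and chance flags about 1 in 20 groups. Several lie at background, where the range of the others is tiny. Among genes with a signal, Hif1a was 11.75 in the high Hif1aKI/+ tumour 5, against 12.44 in the nearest high tumour. That tumour is the only one of its genotype in the high group. Hif1aKI/+ tumours 1, 3 and 4 had Hif1a at 12.25, 12.14 and 11.94. Tpi1, a glycolytic enzyme, was 13.5 in the high Hif1a+/+ tumour 1, against 12.98. In the low group, Fbxo25 was 8.464 in Hif1a+/+ tumour 2, against 9.52 in the nearest tumour, Mfng was 9.791 in Hif1a+/- tumour 5, against 10.64, and Cd3g was 13.28 in Hif1aKI/+ tumour 4, against 12.88.

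Xist stood apart in both groups, at 12.57 in the high Hif1a+/+ tumour 3 and 12.68 in the low Hif1a+/- tumour 1. Near or below the background boundary, the high group had Kit at 2.273 and Hes5 at 2.244 in Hif1a+/+ tumours 3 and 4, and Vhl at 2.065 and Epas1 at 2.816 in Hif1aKI/+ tumour 5. The low group had Me1 at 2.115 in Hif1a+/- tumour 1, and Ace at 2.511 and Igf1r at 3.861 in Hif1a+/+ tumour 2. It also had Bcl11a at 2.337 and Kit at 3.758 in Hif1a+/- tumour 2, Uty at 3.781 in Hif1aKI/+ tumour 4 and Vhl at 2.502 in Hif1a+/- tumour 5.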

How the results depend on the processing

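The count of 1 called gene was 0 after leaving out genes of low mean level, centring the arrays, trend and robust moderation, the genotype as a covariate, and the tumours in between in the fit. It was also 0 with the score as a continuous measure, 4 against 4 or 7 against 7 tumours, score genes scaled to unit SD, the score without Dtx1, Hes1 or Nrarp, and probe sets averaged per gene. Leaving out the 2 lowest-scoring tumours, chosen after seeing the data, also gave 0. With the replicate number as a block the count was 0 and the Tars2 adjusted p 0.205, although the numbers did not pair the tumours. Tars2 was higher in all 32 alternatives, with adjusted p between 0.00192 and 0.726 (limma). Among them, the score without Ptcra or without Notch3 gave unchanged groups and repeated the main fit. Leaving out 1 tumour at a time gave 1 to 2 called genes, Tars2 in all 10 fits with adjusted p from 0.00192 to 0.0484, joined by Zbtb8a without Hif1a+/- tumour 3 and by Ddx20 without Hif1a+/+ tumour 3. Without the Hif1a+/- tumours the 1 called gene was Ddc, not Tars2 (adjusted p 0.0880). The level filter and the moderation settings left the Tars2 difference unchanged and raised its SE, to 0.12 and 0.081 from 0.056. In the other group comparisons that lost the call, the SE ran from 0.059 with 4 against 4 tumours to 0.13 without Nrarp. Their differences ran from 0.50 with 7 against 7 tumours to 0.77 without the Hif1a+/- tumours. For these lost calls and that of the continuous score the cause was not tested. With 5 tumours a group and 1 array each, differences of genes near background are the least certain.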
